A study of Mus musculus with 40 samples.

Results

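The genes that set the lung of the week-old mouse apart from its kidney and its heart were measured on Affymetrix expression arrays. The study followed heart, kidney and lung of male C57BL/6 mice through juvenile growth, with lung and kidney at 1, 4 and 8 weeks and heart at 1 and 4 weeks. All 3 organs at 1 week carry the label rapidly proliferating for their growth rate. Each array was hybridised with biotin-labelled cRNA from total RNA of an organ, with 5 arrays per group and 40 arrays in all, and no treatment or altered allele is given for any group. Of the 15 arrays of 1 week, 13 entered the comparison: 4 of lung (replicates 1, 2, 3 and 5), 5 of kidney and 4 of heart (replicates 1 to 4).

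At birth the mouse lung is still simple in structure, and during the following weeks its airspaces are divided by new septa that carry elastic fibres and a capillary network. Flat alveolar type 1 cells form the surface for gas exchange, and cuboidal alveolar type 2 cells make surfactant, a film of lipids and proteins that lowers surface tension. Conducting airways are lined by secretory (club) cells and ciliated cells, and resident macrophages patrol the airspaces. Because whole organs were measured, more cells of a type and more RNA per cell cannot be told apart in any value below.

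The arrays left out were the one titled heart 5 and the one titled lung 4. Sftpc, the surfactant protein made by alveolar type 2 cells, read 27187 on the first and 1982 on the second, while Myh6, the myosin heavy chain of heart muscle, read 2396 and 36022. Each therefore carried the transcripts of the organ named on the other. With both put back under their titles, limma called 0 of 14207 genes between lung and heart, with 4164 at an unadjusted p under 0.05. Among the arrays used, kidney 1 and heart 1 had the lowest median signals (141.8 and 135.1, against 166.9 to 210.9 on the other 11) and the highest poly-A control signals. Kidney 1 and 5 had more liver transcript than the other kidney arrays (Alb, serum albumin, 11531 and 2921 against 451 to 886). Kidney 3 and 4 had more adrenal transcript. The mean log2 level of the adrenal genes was 8.65 and 8.66 there, against 6.74 to 7.64 on the other kidney arrays. The RNA of lung 3 and 5 held transcripts of skeletal muscle, described with the markers of other tissues. No label says that the arrays of a group came from separate animals, so the p-values measure the spread between arrays, which may be partly technical.

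Signals are the deposited linear intensities, which have a 2% trimmed mean of 500 on every array, and each gene is read from its probe set with the highest mean over all 40 arrays. Differences are on the scale log2(signal + 16), so that they understate the change where one organ is close to background. Signals under 117.9, the lowest 40% of all values, were treated as dim, and 14308 genes with a mean at or above this in at least 1 of the 3 organs were tested. Lung was compared with each organ in 1 limma fit with Benjamini-Hochberg adjustment, and a gene was called where the adjusted p was under 0.05 in the same direction against both.

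Lung differed from kidney in 6443 genes (45% of those tested; 3245 higher, 22.7%, and 3198 lower, 22.4%) and from heart in 7015 genes (49%; 4213 higher, 29.4%, and 2802 lower, 19.6%). Against both organs at once 1990 genes were higher in lung (13.9%) and 1318 were lower (9.21%). At least 4-fold higher than in both were 255 genes (1.78%), and at least 4-fold lower were 56 (0.391%). Strongly different genes were thus mostly high rather than low in lung. All 4 lung arrays lay above all 9 others for 1917 of the tested genes (13.4%) and below them for 1167 (8.16%). The same held for 254 of the 255 and all 56 of the strongly different genes. Those were chosen by adjusted p and size on these same arrays, so their lack of overlap follows largely from the choice and is no further support. The median difference over all tested genes was 0.04 against kidney and 0.14 against heart.

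**Figure D1:**
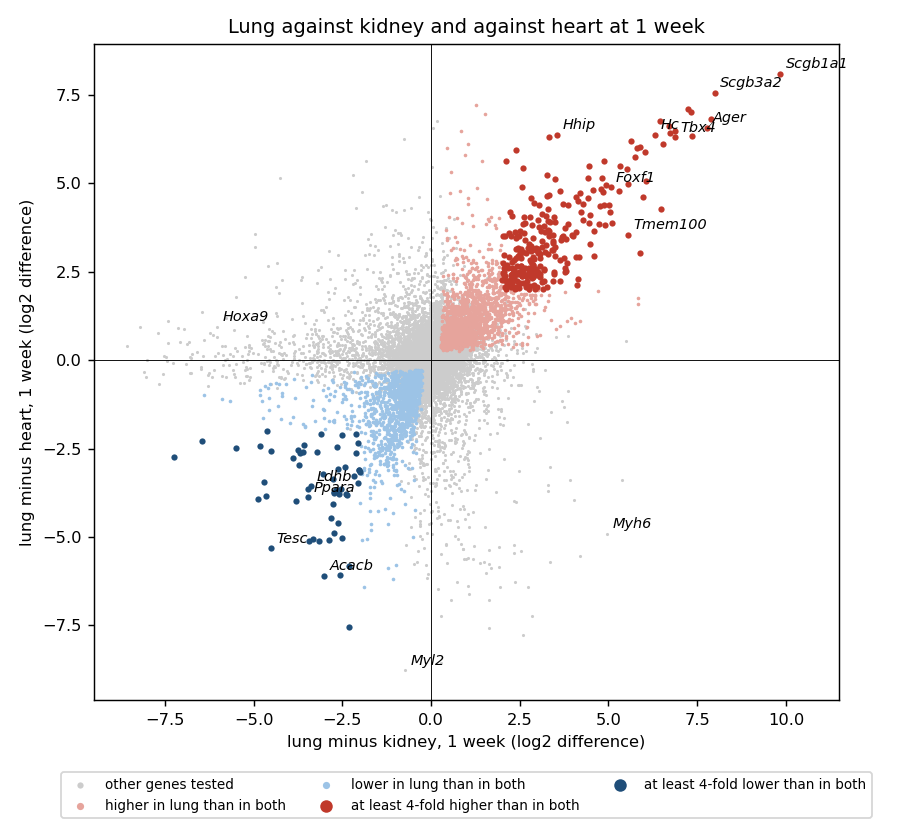
Each point is 1 of the 14308 genes tested at 1 week, placed by its log2 difference of lung from kidney (horizontal axis) and from heart (vertical axis), with the called genes in colour. The 255 genes at least 4-fold higher than in both organs reach out to Scgb1a1 at 9.84 and 8.09, while heart muscle genes such as Myl2 and kidney-patterned genes such as Hoxa9 lie along the axes.

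The 2 genes highest in lung were products of airway secretory cells. Scgb1a1, the secretoglobin that club cells release into the airway, read 31802, 31869, 26608 and 32054 on the 4 lung arrays, 12.1, 52.1, 14.5, 10.2 and 10.9 on the 5 kidney arrays and 6.1, 1145, 107 and 33.1 on the 4 heart arrays. Every lung array was far above every other, and the other organs were dim except for heart 2. The log2 difference was 9.84 (SE 0.82, adjusted p = 2.69e-07) against kidney and 8.09 (SE 0.86, adjusted p = 3.21e-06) against heart. Scgb3a2, a second airway secretoglobin, read 26520, 24462, 23549.9 and 24174 on the 4 lung arrays, 54.7, 109, 105, 31.2 and 151 on the 5 kidney arrays and 24.1, 200.3, 212 and 131 on the 4 heart arrays, and it differed by 8.00 and 7.56 from kidney and heart. Cbr2, a carbonyl reductase abundant in mouse airway cells, followed with means of 17080 in lung, 103 in kidney and 130 in heart. Cyp2f2, the cytochrome P450 of club cells, had means of 11500 in lung, 148 in kidney and 98.1 in heart, and Reg3g, an antimicrobial lectin, means of 1433 in lung, 11.2 in kidney and 13.4 in heart. Of the 18 airway secretory genes listed, 17 were on the array and 16 were tested, and 13 were higher than in both organs, 10 of them at least 4-fold. None was lower, and the list's median difference was 2.63 against kidney and 4.04 against heart, beside 0.04 and 0.14 over all genes.

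The surfactant system formed the second block. Sftpc read 28922, 26967, 23328 and 27854 on the 4 lung arrays, 82.5, 187, 179, 167 and 151 on the 5 kidney arrays and 322, 1072, 213 and 125 on the 4 heart arrays, and Sftpb, the surfactant protein that organises the surface film, read 20919, 16271, 17365 and 16656 on the 4 lung arrays, 94.3, 401, 422, 370.2 and 282 on the 5 kidney arrays and 204, 251, 242 and 341 on the 4 heart arrays. No array of kidney or heart came near the lung arrays for either gene, although Sftpc on heart 2 was several times its level on the other heart arrays. The differences of Sftpb were 5.90 (SE 0.33, adjusted p = 5.02e-09) against kidney and 6.03 (SE 0.35, adjusted p = 7.07e-09) against heart. The collectins Sftpa1 and Sftpd, which bind microbes in the alveolar lining, differed by 7.34 and 7.01 and by 6.71 and 6.62 from kidney and heart. Around them stood Slc34a2, the phosphate transporter of type 2 cells (4.45 and 5.50), Lpcat1, which makes the main surfactant phospholipid (3.23 and 3.26), Lgi3, a secreted protein encoded beside Sftpc (5.04 and 4.19), Hc, complement component 5 (6.32 and 6.37), and Cxcl15, a lung chemokine (7.89 and 6.81). In all 18 of the 21 type 2 genes measured were higher than in both organs, 12 of them at least 4-fold, and none was lower (medians 3.23 against kidney and 5.50 against heart).

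The 3 type 2 genes that were not called were each abundant in one other organ. Napsa, the protease that processes surfactant proteins, had means of 7218 in lung, 12540 in kidney and 84.9 in heart. S100g, a calcium-binding protein, was 13770 in kidney and 721 in lung, and Fabp5, a fatty acid carrier, was 15840 in heart and 6624 in lung. Abca3, the lipid pump of the lamellar bodies, was well above heart (3.44) but only 0.44 above kidney, and that call was lost without kidney 3 or 5 or without lung 1, 2 or 5. Lamp3, the other gene listed, was not matched on the array.

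The start regions of 3 of these highest genes are shown because they hold matches to the regulator motifs that were searched. They are RefSeq sequences of the build GRCm38.p6, from 250 bases before to 50 bases after the start, 5′ to 3′ on the gene's strand, for Sftpb (chr6:72304360-72304659, plus strand), Sftpa1 (chr14:41131538-41131837, plus strand) and the long noncoding RNA Fendrr (chr8:121083061-121083360, minus strand). Capitals mark CTCAAG, which holds the core that NKX2-1 binds, in Sftpb and Sftpa1, and GTAAACA, the forkhead motif TGTTTAC read on the other strand, in Fendrr.
Sftpb: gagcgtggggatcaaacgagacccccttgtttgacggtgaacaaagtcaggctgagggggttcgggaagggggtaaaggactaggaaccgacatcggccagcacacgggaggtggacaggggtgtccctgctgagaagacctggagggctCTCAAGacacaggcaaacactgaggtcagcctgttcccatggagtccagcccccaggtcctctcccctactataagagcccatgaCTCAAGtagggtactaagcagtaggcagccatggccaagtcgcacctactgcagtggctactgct
Sftpa1: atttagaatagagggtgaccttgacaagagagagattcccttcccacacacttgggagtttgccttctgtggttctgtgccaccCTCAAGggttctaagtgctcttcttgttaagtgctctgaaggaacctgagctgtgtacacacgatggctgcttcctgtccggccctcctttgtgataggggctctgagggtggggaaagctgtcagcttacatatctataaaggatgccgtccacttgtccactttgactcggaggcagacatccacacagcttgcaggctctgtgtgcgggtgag
Fendrr: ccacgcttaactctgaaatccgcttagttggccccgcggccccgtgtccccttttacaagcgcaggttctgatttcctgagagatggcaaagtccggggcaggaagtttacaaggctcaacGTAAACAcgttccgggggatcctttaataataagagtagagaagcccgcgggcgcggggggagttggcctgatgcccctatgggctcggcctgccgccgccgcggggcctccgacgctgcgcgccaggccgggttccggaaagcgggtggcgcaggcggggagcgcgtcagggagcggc
Such matches are common: CTCAAG on either strand was in 18.3% of the 82 start windows of the 100 genes highest in lung that had an entry, in 13.8% of 109 windows of the 100 lowest and in 15.9% of all 32851 windows. TGTTTAC on either strand was in 7.3%, 3.7% and 3.6% of the same sets. The TEAD motif GGAATG was in 9.8%, 12.8% and 14.7%, and the RFX motif GTTGCCA, typical of ciliated cell genes, in 4.9%, 3.7% and 4.4%. Of the 100 highest genes 72 had an entry, of the 100 lowest 84.

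Type 1 cell genes were high as well. Ager, the receptor RAGE that type 1 cells carry on their basal side, read 17779.9, 16389.5, 16493 and 18671 on the 4 lung arrays, 222, 24.8, 11.7, 49.1 and 158 on the 5 kidney arrays and 67.2, 197, 189.9 and 289 on the 4 heart arrays. Every lung array was far above all others. Its difference was 7.78 (SE 0.56, adjusted p = 5.94e-08) against kidney and 6.57 (SE 0.59, adjusted p = 5.56e-07) against heart. Cldn18, a tight junction protein, had means of 5246 in lung, 33.2 in kidney and 47.1 in heart, Aqp5, a water channel, means of 2620 in lung, 39.9 in kidney and 22.1 in heart, and Akap5, an anchor for protein kinase A, means of 3562 in lung, 39.5 in kidney and 91 in heart. Of 19 type 1 genes, all measured, 14 were higher than in both organs, 10 at least 4-fold, and none was lower (medians 3.05 against kidney and 3.44 against heart). The other 5 were abundant in one other organ too: Hopx, a homeodomain protein (21610 in heart, 11720 in lung) and Cav1, the coat protein of caveolae (15750 and 14560), had the higher mean in heart, and Krt7 (2781 in kidney, 2778 in lung) and Col4a3 (1755 and 1734) had nearly the same mean in kidney. Lmo7 had means of 7838 in heart and 4259 in lung.

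**Figure D2:**
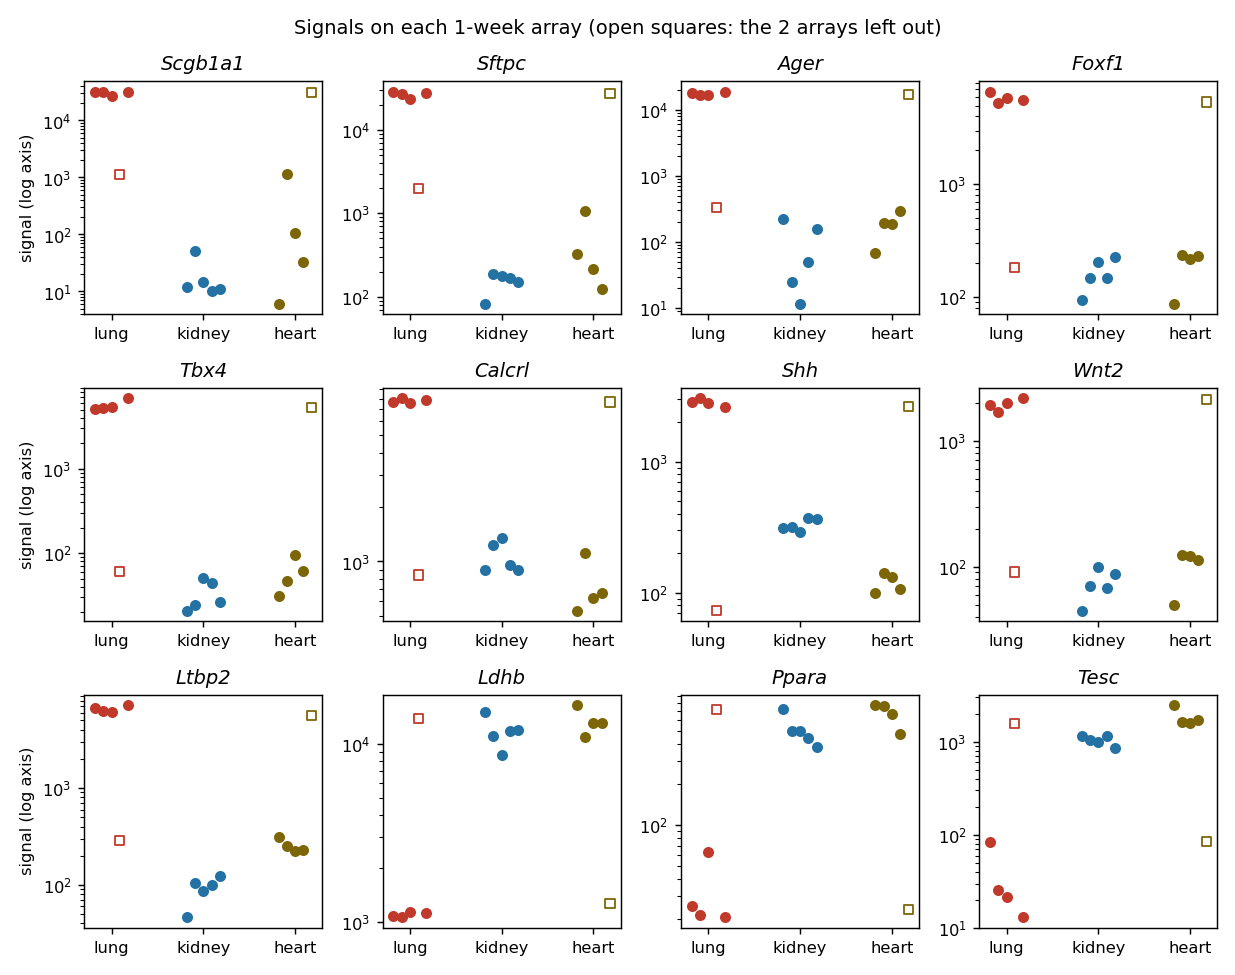
Signals of 12 genes on each array of 1 week, on log axes, with lung in red, kidney in blue and heart in brown. The 4 lung points used stand apart from the 9 others in every panel, above them for the first 9 genes and below them for Ldhb, Ppara and Tesc, and the open squares of the 2 arrays left out lie with or near the opposite organ.

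Genes of motile cilia were higher in lung at lower signals. Of 21 measured, 19 were tested, 14 were higher than in both organs and 5 at least 4-fold, and none was lower. Foxj1, the transcription factor that turns on motile cilia, had means of 322 in lung, 129 in kidney and 95.7 in heart (differences 1.26 and 1.64). Dynlrb2, a dynein light chain, differed by 3.22 and 3.63, Dnaic2, an outer dynein arm subunit, by 2.96 and 3.12, and Rsph1, a radial spoke protein, by 3.19 and 2.56. Genes of basal and neuroendocrine airway cells did not follow. Their mean log2 level was 6.29 to 6.93 on the lung arrays and 5.98 to 6.44 on the heart arrays. It was 7.80 and 7.79 on kidney 3 and 4, which also held adrenal transcripts, and 6.06 to 6.81 on the other kidney arrays. Whether adrenal tissue had a part in these kidney values was not tested. Without kidney 3 and 4 together, 0 of these genes were higher in lung than in both organs and 1 was lower. Krt15, a basal cell keratin, was called higher (2.07 and 2.07) but read 30.6, 35.8, 76.4 and 931 on the lung arrays, so that the signal lay mostly on lung 5, and the call against heart was lost without heart 1 or without heart 2. Without lung 5 none of these genes was higher. Uchl1, a ubiquitin hydrolase of nerve and endocrine cells, was lower (-0.46 and -1.42), and the other 10 of 12 measured were not called, among them Krt5, the keratin of basal cells, at 161 in lung and 132 in kidney.

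Among transcription factors of the lung lineages, 17 of 30 were higher than in both organs and none was lower. Tbx4, which is active in the mesenchyme of the early lung bud, was the factor with the largest gap. It read 5118, 5208, 5348 and 6768 on the 4 lung arrays, 21, 24.3, 50.9, 44.3 and 26.4 on the 5 kidney arrays and 30.8, 46.9, 95.5 and 61.8 on the 4 heart arrays, and differed by 6.86 (SE 0.24, adjusted p = 5.55e-11) against kidney and 6.30 (SE 0.25, adjusted p = 2.56e-10) against heart. Foxf1, a forkhead factor of lung mesenchyme and capillaries, read 6639, 5253, 5791 and 5608 on the 4 lung arrays, 94.8, 146, 206, 149 and 229 on the 5 kidney arrays and 87.3, 237, 218 and 229 on the 4 heart arrays. No kidney or heart array came near. Its differences were 5.06 (SE 0.27, adjusted p = 3.33e-09) against kidney and 4.89 (SE 0.29, adjusted p = 8.33e-09) against heart. Fendrr, the noncoding RNA transcribed beside Foxf1 in the opposite direction, read 2901, 3463, 1837 and 3188 on the 4 lung arrays, 21.4, 3.8, 2.6, 25.2 and 6.6 on the 5 kidney arrays and 28.9, 6.1, 7.2 and 34 on the 4 heart arrays, with differences of 6.72 and 6.41. Sox2, needed for airway epithelium, differed by 4.15 and 4.50, Foxa1 and Foxa2, forkhead factors of gut-derived epithelium, by 3.28 and 5.22 and by 2.82 and 3.22. Nkx2-1, the factor that defines lung epithelium, was called at a low signal (means of 153 in lung, 33.3 in kidney and 49.4 in heart; differences 1.97 and 1.35). Gata6 was higher in heart (5118) than in lung (1858), Tbx5 did not differ from heart by the test (0.69), and Tcf21, a mesenchymal factor, was at 9161 in lung and 10180 in kidney.

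Fendrr and Foxf1 are neighbours in the order of genes on GRCm38.p6. Of the 254 strongly higher genes with a position, 22 lay in 11 pairs next to each other among the genes on the array. The pairs included Sftpc with Lgi3, Foxa1 with Ttc6 and S100a8 with S100a9. How many such pairs another set of 254 genes would hold was not counted, so the 11 are given as a description only. Lyz1 with Lyz2 and Aldh1a1 with Aldh1a7 are near-identical copies whose probe sets may share signal.

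Hox genes differed by their position in the cluster. These factors mark position, with low group numbers active toward the head and high numbers toward the tail. Of 13 genes of groups 1 to 5 measured, 5 were higher in lung than in both organs (Hoxa2, Hoxa3, Hoxa4, Hoxa5 and Hoxb5). The count was 3 without kidney 3 and 4 together and 2 without lung 3 and 5 together. Hoxa3 and Hoxb5 lost their call against kidney in both of these settings. Hoxb5 had means of 818 in lung, 397 in kidney and 26.3 in heart (differences 1.03 and 4.43). Hoxa5, which the mouse lung needs to develop, read 1582, 1699, 1677 and 1796 on the 4 lung arrays, 354, 831, 1019, 849 and 528 on the 5 kidney arrays and 681, 1058, 915 and 1181 on the 4 heart arrays, with a difference from heart of 0.83, adjusted p = 0.0222, lost without heart 1 or without lung 5. In the higher groups kidney stood above lung. Of 15 measured genes of groups 6 to 11, none was higher than in both, 13 were lower in lung than in kidney, and 3 (Hoxb9, Hoxc9 and Hoxd11) were lower than in both, the call of Hoxc9 against heart being lost without heart 3, heart 4 or lung 5. Hoxa9 read 6.7, 49, 56.3 and 61 on the 4 lung arrays, 4235, 3596, 3787, 2884 and 3083 on the 5 kidney arrays and 4.6, 10.6, 15.1 and 19.1 on the 4 heart arrays. Kidney alone was high. The median difference of groups 6 to 11 was -3.87 against kidney and 0.40 against heart, and that of groups 1 to 5 was 0 against kidney and 1.56 against heart.

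**Figure D3:**
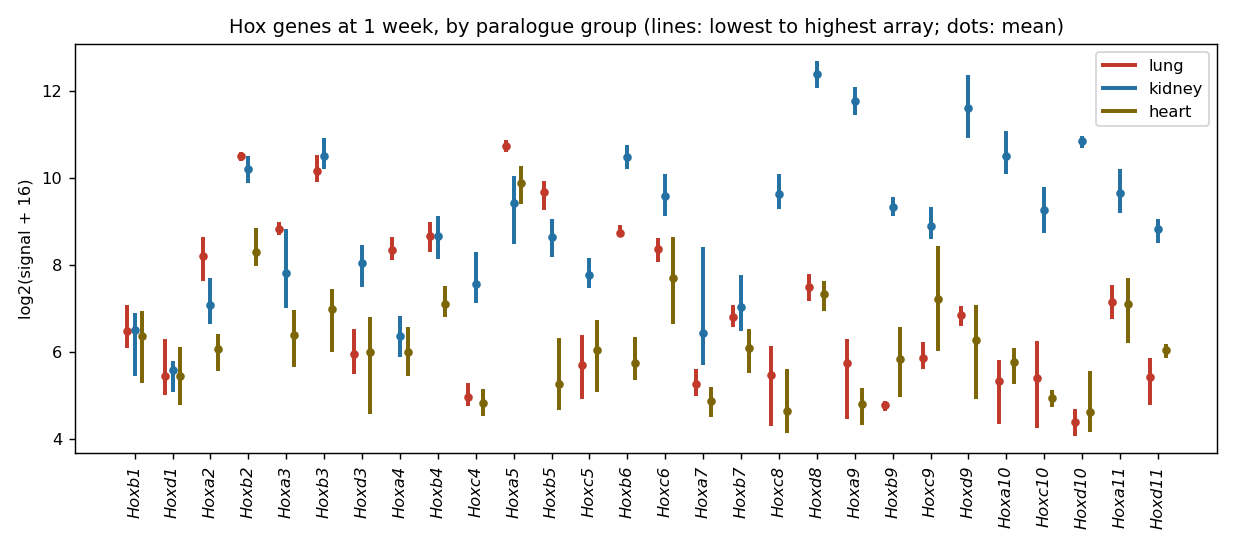
Signals of the 28 Hox genes measured, on the scale log2(signal + 16), in order of paralogue group, with a line from the lowest to the highest array of each organ and a dot at the mean. Kidney (blue) stands above lung (red) and heart (brown) from groups 8 to 11, while lung stands above both for Hoxa2, Hoxa3, Hoxa4, Hoxa5 and Hoxb5.

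General endothelial genes were richer in lung than in both organs as a list, by less against heart than against kidney. Their mean log2 level was 11.44 to 11.55 on the lung arrays, 9.90 to 10.25 on the kidney arrays and 10.83 to 10.98 on the heart arrays. Of 23 general endothelial genes, 21 were above kidney and 13 above heart, and 12 above both, with medians of 1.45 against kidney and 0.45 against heart. Cldn5, the endothelial tight junction protein, had means of 8571 in lung, 1559 in kidney and 2450 in heart, and Cdh5, the endothelial cadherin, means of 3529 in lung, 939 in kidney and 2526 in heart, the latter not called. Calcrl, the receptor for adrenomedullin, stood out. It read 7699.5, 8027, 7607 and 7902 on the 4 lung arrays, 902, 1230.4, 1343, 961 and 892 on the 5 kidney arrays and 535, 1111, 623 and 665 on the 4 heart arrays, and differed by 2.87 (SE 0.19, adjusted p = 2.91e-08) against kidney and 3.44 (SE 0.20, adjusted p = 8.07e-09) against heart. Of 13 genes of lung capillaries, 8 were higher than in both. Scn7a, a sodium channel, differed by 5.54 and 4.98, Tmem100, a target of ALK1 signalling, by 5.56 and 3.55, and Hpgd, which breaks down prostaglandins, by 2.90 and 4.44. Vwf, the clotting factor carrier, was 2206 in lung, 107 in kidney and 1034 in heart. Among 5 lymphatic genes, 3 were higher than in both, and none was lower (1 without kidney 4), with Lyve1, a hyaluronan receptor also found on macrophages, at 5.90 and 3.02, whereas Prox1, the lymphatic master factor, was highest in heart (623, against 50.4 in lung).

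Of 24 mesenchymal genes of septation measured, 23 were tested, 13 were higher than in both organs, 6 at least 4-fold, and none was lower. Wnt2, a ligand of lung mesenchyme, read 1928, 1684, 1998 and 2174 on the 4 lung arrays, 44.8, 70.5, 99.5, 67.1 and 87.6 on the 5 kidney arrays and 49.2, 124, 122 and 113 on the 4 heart arrays, and differed by 4.48 (SE 0.23, adjusted p = 2.32e-09) against kidney and 4.11 (SE 0.25, adjusted p = 9.4e-09) against heart. Hhip, which binds hedgehog ligands, differed by 3.55 and 6.37, Col13a1, a membrane collagen of matrix fibroblasts, by 3.29 and 4.27, and Tnc, the matrix protein tenascin C, by 2.16 and 2.62. Of 8 mesothelial genes 5 were higher, led by Msln, the surface protein mesothelin of the pleura (4.14 and 2.30), and 1, Wt1, a factor of mesothelium and of kidney podocytes, was lower, with means of 119 in lung, 1070 in kidney and 406 in heart. Pdgfra, the receptor of septal myofibroblasts, was 2514 in lung and 3296 in kidney and was not called.

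Ltbp2, which binds elastic fibre proteins, read 6658, 6284, 6032 and 7150.2 on the 4 lung arrays, 46.3, 105, 85.9, 100.4 and 124 on the 5 kidney arrays and 314, 249.5, 222 and 229 on the 4 heart arrays. All 4 lung arrays were far above the others, with heart above kidney. Mfap4, a microfibril protein, had means of 15410 in lung, 208 in kidney and 823 in heart. Elastin itself (Eln) was 19380 in lung and 15540 in heart, a difference of 0.33 that was not called, and 2.98 above kidney. In all 8 of 19 elastic fibre genes were higher than in both (42.1%), and none was lower. Of 20 collagens 3 were higher and 3 lower (15% each), the lower being Col14a1, Col15a1 and Col18a1. Of all genes tested 13.9% were higher and 9.21% lower, so the share of collagens higher was near that of all genes. Of 18 genes of smooth muscle and pericytes 9 were higher, including Tagln (1.27 and 2.74) and Myh11 (1.93 and 2.39), both of the contractile apparatus, and 1, the pericyte gene Rgs5 (-2.03 and -3.11), was lower, a count of 1 that was 3 without kidney 3 and 2 without kidney 5, lung 2 or lung 3.

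Signalling genes of branching and septation were taken by pathway. Of all genes tested 13.9% were higher than in both organs and 9.21% lower, and of all genes on the array 10.9% and 7.2%. In the hedgehog pathway 5 of 8 genes were higher than in both organs. Shh, the ligand made by airway epithelium, read 2856, 3049, 2801 and 2600.5 on the 4 lung arrays, 312, 316, 289, 369.7 and 367 on the 5 kidney arrays and 99.2, 142, 132 and 106 on the 4 heart arrays, with differences of 3.04 (SE 0.12, adjusted p = 2.05e-10) against kidney and 4.40 (SE 0.13, adjusted p = 2.56e-11) against heart. Its receptor Ptch1 differed by 1.28 and 2.60, and the effector Gli2 by 1.11 and 1.17, while Smo was not called. In the BMP and TGF-beta pathways 11 of 19 were higher and 1 was lower. The ligands Bmp5 and Bmp2 differed by 4.49 and 3.29 and by 2.77 and 2.61, the inhibitor Smad6 by 2.00 and 1.70, and Bmp7, a ligand of kidney development, was lower (-2.26 and -1.26); without kidney 1 the lower genes numbered 2. In the WNT pathway 7 of 22 were higher (31.8%) and 2 lower (9.1%, near the share of all genes tested). Besides Wnt2, the enhancer Rspo2 differed by 4.16 and 2.93 and the feedback gene Axin2 by 1.17 and 2.61. The lower genes were the antagonists Sfrp1 (-3.96 and -1.77) and Sfrp2 (-0.67 and -1.50). Of 16 FGF pathway genes 6 were higher, with the ligand Fgf18 at 4.70 and 1.94 and the target Etv5 at 2.76 and 2.50, and Fgf9 was lower (-1.34 and -0.98). Fgf10, the branching signal, was too dim to be tested (112 in lung). Of 18 VEGF, angiopoietin and PDGF genes 7 were higher, led by Vegfd (1.80 and 3.81), and Vegfb, the ligand abundant in heart, was lower (-0.97 and -3.26).

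Immune genes were present at 1 week in several classes. Chil3, the chitinase-like protein of alveolar macrophages, read 2048, 1276, 1133 and 1365 on the 4 lung arrays, 5.4, 5.3, 8.9, 19.7 and 10.9 on the 5 kidney arrays and 4.8, 6.5, 6.1 and 7.8 on the 4 heart arrays. No kidney or heart array exceeded 19.7. Marco, a scavenger receptor, and Siglecf, a lectin of alveolar macrophages, differed by 3.45 and 3.54 and by 3.30 and 3.01, and 6 of 10 genes of this class were higher than in both. General macrophage genes were higher for 8 of 15, with Ctss, a lysosomal protease, at 2.93 and 2.57, while C1qa, C1qb and C1qc of the complement system were not called. Neutrophil and mast cell genes were higher for 8 of 17 (S100a8 3.46 and 2.43; Ltf, lactoferrin, 2.38 and 2.04), and B cell genes for 4 of 9. T and NK cell genes were called for 3 of 13, 2 higher (Nkg7 and Gzmb, 15.4%) and 1 lower (Thy1, 7.7%). Over all genes on the array the shares were 10.9% higher and 7.2% lower, so this class was near the general level. Its count of 2 higher fell to 1 without heart 1, heart 4 or lung 1. None of 9 thymocyte genes was called, and 1 was without lung 1. Of 14 chemokine genes 4 were higher (28.6%) and none lower, and of 11 class II genes 4 were higher (36.4%) and 1 was lower (9.1%). Class II genes were led by H2-Aa and Cd74, with 4555 and 7189 in lung and differences of 3.24 and 4.08 and of 3.36 and 3.91. The chemokine Ccl6 (4.92 and 4.95) and Retnla, a secreted resistin-like protein (5.75 and 5.73), were among the 25 highest genes, as were Chil1, a chitinase-like protein (6.55 and 6.11), and Sec14l3, a lipid-binding protein (5.32 and 5.50).

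Lipid and fluid handling differed gene by gene. Scd1, which makes monounsaturated fatty acids, had means of 8879 in lung, 757 in kidney and 413 in heart, and Fasn, fatty acid synthase, means of 3118 in lung, 1082 in kidney and 1380 in heart, and 9 of 17 lipid synthesis genes were higher than in both while Chpt1 was lower (-1.68 and -0.97). The epithelial sodium channel, which clears fluid from the airspaces, was higher for its gamma subunit Scnn1g (0.84 and 6.48) and not called for Scnn1b, which was 836 in lung and 1334 in kidney. Of 11 ion and water transport genes 7 were higher and 2 lower, the latter Aqp4 and the sodium pump subunit Atp1b1 (-2.13 and -0.70). Of 14 retinoid genes, 11 of them tested, 3 were higher and 3 lower (21.4% each, beside 10.9% and 7.2% of all genes on the array). The other 8 were not called, and the medians of the list were -0.02 against kidney and 0.54 against heart. Among the called were the degrading enzyme Cyp26b1 at 1.45 and 2.55 and the synthetic enzyme Aldh1a2 at -1.40 and -1.79. The probe set named Aldh1a1 read 5858 in lung, with differences of 4.76 and 4.34. Its copy Aldh1a7 was higher as well (3.64 and 4.79), and whether their probe sets share signal was not tested. Phex, a peptidase best known from bone, was among the highest genes and read 1527, 1478, 1422 and 1562 on the 4 lung arrays, 2.5, 13.9, 4.8, 0.8 and 17.9 on the 5 kidney arrays and 3.4, 15.4, 4.5 and 19.6 on the 4 heart arrays.

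**Figure D4:**
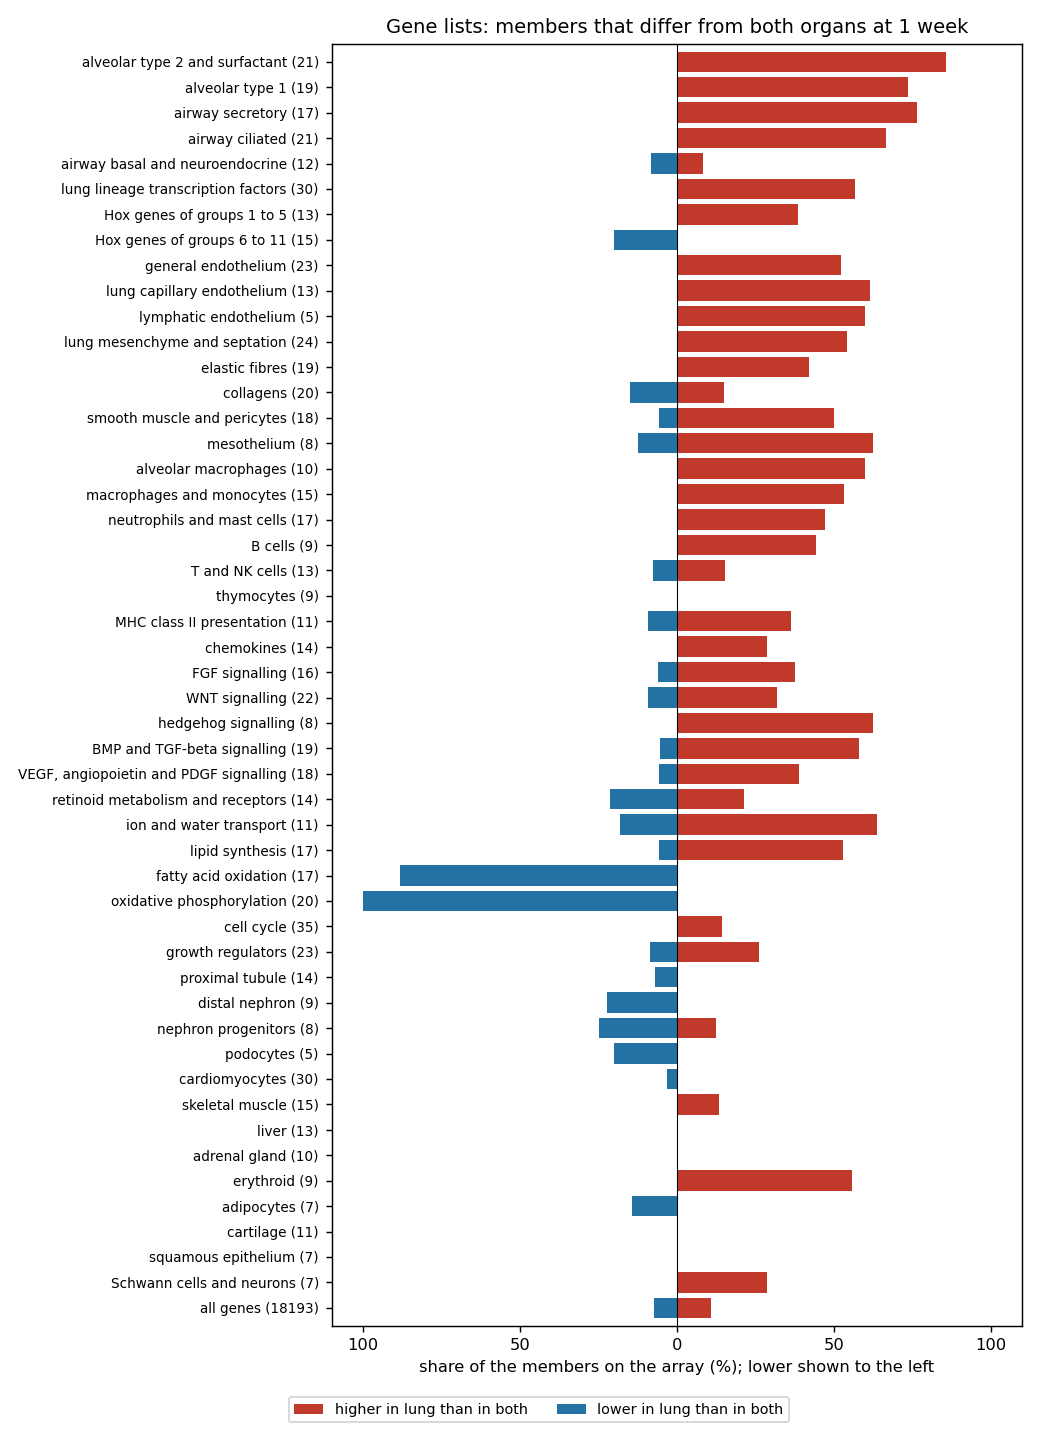
For each of 49 gene lists, with the number of members on the array in brackets, the share called higher in lung than in both organs (red, to the right) and lower (blue, to the left), with all genes on the array in the last bar. The share higher is largest for alveolar type 2 cells at 85.7%, and oxidative phosphorylation is lower in 100% of its 20 genes.

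Oxidative metabolism was lower in lung as a group. All 20 genes of oxidative phosphorylation measured were lower than in both organs, with medians of -1.24 against kidney and -2.39 against heart, and so were 15 of 17 genes of fatty acid oxidation (medians -1.24 against kidney and -2.92 against heart). The same lists, on the separate arrays of 4 weeks, gave 20 and 16 genes lower. Ppara, the nuclear receptor that drives fatty acid oxidation, read 25.3, 21.4, 63.1 and 20.7 on the 4 lung arrays, 726, 493, 494, 439 and 377 on the 5 kidney arrays and 772, 765, 661 and 476 on the 4 heart arrays, and differed by -3.47 (SE 0.25, adjusted p = 5.16e-08) against kidney and -3.87 (SE 0.26, adjusted p = 2.89e-08) against heart. Acadm, a medium-chain dehydrogenase, had means of 2190 in lung, 8411 in kidney and 20220 in heart, and Sdha, a subunit of complex II, means of 3118 in lung, 10430 in kidney and 18770 in heart. The exceptions among fatty acid oxidation genes were Cpt1a, the entry enzyme of liver type, which was 3174 in lung and 2853 in heart, and Hadhb, whose -0.45 against kidney did not pass the test.

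The single genes lowest in lung included others outside those lists. Tesc, a calcium-binding protein, read 84.8, 25.7, 21.3 and 13 on the 4 lung arrays, 1167, 1038, 985, 1147 and 853 on the 5 kidney arrays and 2473, 1614, 1595 and 1721 on the 4 heart arrays. Lung 1 was the highest lung array, and still far below the lowest kidney array. It differed by -4.50 (SE 0.29, adjusted p = 1.74e-08) against kidney and -5.31 (SE 0.30, adjusted p = 5.62e-09) against heart. Ldhb, the lactate dehydrogenase subunit of oxidative tissues, read 1076, 1063, 1136 and 1118 on the 4 lung arrays, 15025, 11134, 8638, 11849 and 11942 on the 5 kidney arrays and 16478, 10904, 13024 and 13104 on the 4 heart arrays. Its 4 lung arrays spanned a narrow range, and its differences were -3.37 and -3.57. Slc47a1, an exporter of organic cations, differed by -4.88 and -3.91, Adhfe1, a mitochondrial hydroxyacid enzyme, by -4.66 and -3.84, Esrrg, a nuclear receptor of mitochondrial genes, by -4.71 and -3.44, Acacb, the carboxylase of mitochondrial fuel control, by -3.02 and -6.10, and Got1, an aspartate aminotransferase, by -2.86 and -5.10. The rest of the 15 lowest were Fhod3, a formin of heart muscle (-3.44 and -5.11), Me3, a mitochondrial malic enzyme (-3.47 and -3.65), Corin, a protease that activates natriuretic peptide (-3.34 and -5.05), Frzb, a secreted WNT antagonist (-3.72 and -2.96), Pla2g5, a phospholipase (-3.04 and -3.21), Asb15 (-3.16 and -5.10), Ppara and Fabp4. Of the 56 strongly lower genes only 5 were in any of the lists, as were 81 of the 255 strongly higher ones.

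Of 35 cell cycle genes measured, 5 were higher than in both organs and none lower. The share higher was 14.3%, beside 10.9% of all genes on the array and 13.9% of those tested. The medians were 0.37 against kidney and 0.17 against heart, beside 0.04 and 0.14 over all genes tested. Mki67, a marker of dividing cells, was 1836 ± 325 (SD, n = 4) in lung, 1325 ± 381 (n = 5) in kidney and 1640 ± 1227 (n = 4) in heart and was not called. The count of 5 fell to 2 without heart 2, heart 3 or lung 5, to 3 without kidney 2, lung 2 or lung 3, and was 8 without heart 1. Of 23 growth regulators 6 were higher (26.1%) and 2 lower (8.7%, near the 7.2% of all genes on the array). The lower count was 1 without heart 2, 3 or 4, kidney 2, or lung 1 or 2. Igf2, the fetal growth factor, was 13840 in heart and 1687 in lung, and Igfbp2 differed by 1.59 and 4.54.

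Markers of other tissues were measured in the same way. On the lung arrays the 14 proximal tubule genes were close to heart (median 0.09) and far below kidney (-6.15). Cardiac muscle genes lay between: 24 of 30 were above kidney and all 30 below heart, with medians of 2.12 against kidney and -5.42 against heart, and their mean log2 level was 7.96 to 9.11 on the lung arrays, 5.99 to 6.94 on the kidney arrays and 13.98 to 14.19 on the heart arrays. Myl7, the atrial myosin light chain, read 936, 2051, 2652 and 2206 on the 4 lung arrays, 5, 33.6, 77.9, 39.5 and 14.7 on the 5 kidney arrays and 23695, 18970.4, 18526 and 16511 on the 4 heart arrays, whereas Myl2, its ventricular counterpart, read 96.3, 34.7, 96.4 and 109.6 on the lung arrays and 62.4, 84.8, 325, 104 and 280 on the kidney arrays. So the atrial gene was above kidney on every lung array and the ventricular gene was not. Heart muscle surrounds the pulmonary veins of mice, and the part of that tissue, or of heart taken with the lung, was not tested.

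Skeletal muscle genes were high on 2 of the lung arrays. Their mean log2 level was 8.52 and 8.30 on lung 3 and 5, and 6.21 and 6.08 on lung 1 and 2. Of 15 genes 2 were called higher (Tnnt3 and Atp2a1). This share of 13.3% was near that of all genes on the array (10.9%) and of those tested (13.9%). The count ran from 0 without lung 3, lung 5, kidney 1 or kidney 4 to 6 without lung 1. Lung 5 also carried squamous epithelium genes, at 9.92 against 7.04 to 7.16 on the other lung arrays used. Red cell genes were higher in lung for 5 of 9, with Slc4a1, the band 3 protein, at 2727, 5741, 3809.8 and 1524 on the 4 lung arrays, and the count fell to 3 without lung 2. Without lung 3 and 5 together the strongly higher genes numbered 268 and the strongly lower 68, and all genes higher than in both numbered 1378. No gene of the liver, adrenal, cartilage or squamous epithelium lists was called in either direction. The remaining kidney lists were short, and over all genes on the array 10.9% were higher and 7.2% lower. Of 9 distal nephron genes 2 were lower (22.2%), or 1 without heart 4 or lung 3. Of 8 nephron progenitor genes 1 was higher (12.5%, near the share of all genes) and 2 were lower (25%). None was higher under 9 of the 13 leave-outs. Of 5 podocyte genes 1 was lower (20%). Of the proximal tubule genes 1 was lower than in both (2 or 3 without any of heart 1, heart 3 or lung 1 to 3). That was 7.1%, near the share of all genes. Of the cardiac muscle genes 1 was lower (3.3%), or 2 without kidney 1 or lung 3. Among 7 adipocyte genes Fabp4, a fatty acid carrier of fat cells and capillaries, was lower (-2.81 and -4.47). Of 7 genes of Schwann cells and neurons, Stmn2 (3.63 and 2.82) and Gap43 (3.77 and 2.49) were higher than in both organs and the other 5 were not called, with medians of 0.09 against kidney and 0.32 against heart.

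Whether the difference lasted was read on the 15 arrays of 4 weeks, which share no array with those above. There 3483 genes were higher in lung than in both organs (24.1% of 14462 tested), 1944 lower (13.4%), 439 at least 4-fold higher (3.04%) and 142 at least 4-fold lower (0.982%). Of the 255 genes strongly higher at 1 week, 243 were bright enough to be tested at 4 weeks, and 238 (93.3%) were higher than in both and 203 (79.6%) at least 4-fold. The 203 were 46.2% of the 439, and none of the 255 was lower. Of the 56 strongly lower genes 50 (89.3%) were lower at 4 weeks, 39 (69.6%) at least 4-fold. At 8 weeks, where there was no heart, 215 of the 255 had a mean at least 4-fold above kidney. Every lung array was above every kidney array for 239. These counts at 8 weeks were not taken over all genes, so no general share stands beside them. In lung itself the level at 4 weeks was within 2-fold of that at 1 week for 176 of the 255, lower for 30 and higher for 49.

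The 17 genes not called higher than in both at 4 weeks were named after their values were seen. Tested and not called were Tnc, Cebpb, Ces1d, Slco4c1 and Cass4, and the other 12 were too dim for the test, so that no call was possible: Trim67, Rspo2, Krt15, Opcml, Slc17a2, Stfa3, Stfa2l1, Prss35, Brinp1, Arg1, Chsy3 and Slc39a2. Some of the 12 still read above both organs, such as Brinp1 with 79.1 in lung, 4.54 in kidney and 6.56 in heart at 4 weeks. Tnc went from 4866 in lung at 1 week to 291 at 4 weeks, and Rspo2 from 643 to 63.9. Ces1d, a carboxylesterase, kept its signal in lung (5500 and 9916), while kidney went from 260.5 to 9489.

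The change of the lung difference itself, taken as lung minus the mean of kidney and heart, was tested over the 28 arrays of both ages. It was called for 3014 of 14856 genes (20.3%), 1197 with a larger difference at 1 week (8.06%) and 1817 with a smaller one (12.2%). Among the 255 strongly higher genes it was larger at 1 week for 35 (13.7%) and smaller for 50 (19.6%). The 255 were chosen for a large difference on these same 1-week arrays, which affects the split, so it is given as a description only. Trim67, a ubiquitin ligase known from neurons, read 452, 542, 435 and 403 on the lung arrays of 1 week and 13.9, 9.7, 13.9, 45.2 and 18 on those of 4 weeks, and its difference changed by 3.88 (SE 0.35, adjusted p = 1.48e-08). Opcml, a neural adhesion molecule, changed by 2.86 (SE 0.36, adjusted p = 2.23e-06), and Slc17a2, a phosphate transporter, by 3.65 (SE 0.45, adjusted p = 1.58e-06). Agt, angiotensinogen, had the largest change, 5.07 (SE 0.29, adjusted p = 8.02e-12). It read 1327, 1515, 1566 and 1670 on the lung arrays of 1 week and 27.7, 32.2, 16.7, 25.9 and 23.8 on those of 4 weeks, while kidney stayed at 984 and 1332. Slc4a1 changed by 3.27 (SE 0.41, adjusted p = 2.18e-06). Serpina1f, a serpin, changed by 3.01 (SE 0.37, adjusted p = 1.69e-06), with kidney means of 104 at 1 week and 9288 at 4 weeks. Tnnc2, a fast muscle troponin, read 14.4, 15.4, 1622 and 989 on lung 1, 2, 3 and 5, so its change of 3.00 (SE 0.99, adjusted p = 0.0327) lay with the 2 arrays that held skeletal muscle transcripts. Without those 2 arrays Tnnc2 was too dim to be tested.

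The genes with a smaller difference at 1 week included some with higher lung signals at 4 weeks. Chil3 went from a mean of 1456 to 16540, Cyp2b10, a cytochrome P450, from 336 to 6589, Bpifa1, an airway surfactant-like protein, from 444 to 7874, and Serpina3n, a protease inhibitor, from 43.3 to 596. Their differences changed by -3.41 (SE 0.39, adjusted p = 6.67e-07) for Chil3 and by -4.02 (SE 0.38, adjusted p = 2.72e-08) for Cyp2b10. The heat shock genes Hspa1a and Hspa1b, near-identical copies, were 237 and 599.9 in lung at 1 week and 3909 and 10530 at 4 weeks. For others the lung mean moved little or stayed dim and another organ differed: Hdc, which makes histamine, was 1517 in kidney at 1 week and 11.3 at 4 weeks, and Tnni1, the slow troponin, was 19040 and 27 in heart and dim in lung at both ages.

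**Figure D5:**
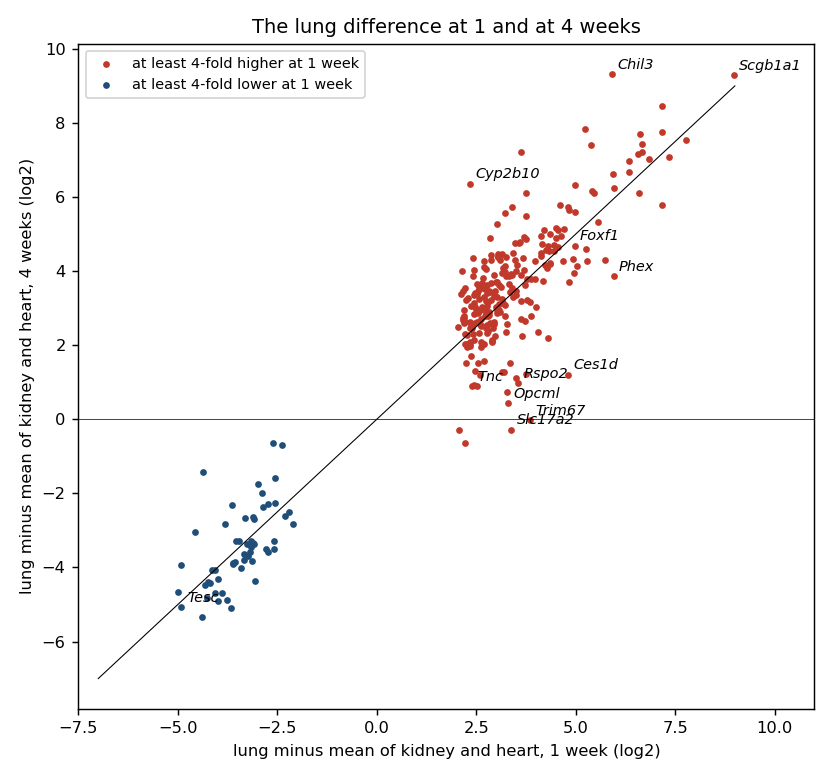
For the 255 genes at least 4-fold higher (red) and the 56 at least 4-fold lower (blue) in lung at 1 week, the log2 difference of lung from the mean of kidney and heart at 1 week (horizontal axis) and at 4 weeks (vertical axis), with the line of equal values. Most lie near the line, Chil3 and Cyp2b10 lie above it, and Trim67, Slc17a2 and Opcml lie near 0 at 4 weeks.

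Other probe sets of the same gene were compared last. Of the 255 strongly higher genes 94 had at least 1 further bright probe set, and in 90 all of them differed in the same direction. For the 56 lower genes the numbers were 34 and 31. The genes had been chosen on these same arrays, and agreement was judged by direction alone. The share over all genes was not counted, so the numbers are a description only and no further support. The genes with a disagreeing probe set, named after their values were seen, were Hivep3, Map6, Rab27a and Rspo2 among the higher and Mdh1, Ptn and Tmem143 among the lower.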

How the data were processed

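The authors deposited 1 linear intensity per probe set and array for 45101 probe sets, 64 of them controls. RMA and Partek 6.6 are listed in the submitters' processing notes, with no role given, and the values are not on the log2 scale that RMA writes. How they were summarised is not given in the sources used here, and the table has no detection calls. Symbols came from the platform annotation: 34945 probe sets had 1 symbol, 932 several (not used) and 9160 none. Values were analysed as log2(intensity + 16) in limma 3.58.1 (R 4.3.3) with a mean per organ, moderated variances, two-sided tests, Benjamini-Hochberg adjustment and a threshold of 0.05, over 14308 genes. Precision is limited by the number of arrays. The 4-week fit used 15 arrays and the age change 28.

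The members, gene lists and tests were chosen with earlier results of these data known, including which 2 arrays to leave out. Genes named are the 25 highest and 15 lowest by the smaller difference, the 8 largest age changes each way, and list members: any of the lung cell, transcription factor, Hox, endothelial, matrix and signalling lists, and up to 4 called members of each other list. Alb, Atp1b1, Cpt1a, Hadhb, C1qa, C1qb, C1qc, Col14a1, Igf2, Mki67, Myh6, Myl2, Myl7, Scnn1b, Scnn1g and Tagln, and other genes named for a neighbour or probe set, were chosen after their values were seen. The 49 lists have 791 entries, of which 741 are on the array. Over all genes on the array 10.9% were higher in lung than in both organs and 7.2% lower, the shares to set beside the list counts. Alternatives covered the offset, filter, normalization, probe set rule, blocks and arrays left out.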

Additional observations from a re-analysis of the deposited data

Results flagged for a closer look

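Single arrays stood far from the rest of their group in 24 of 213 groups of values examined (11.3%). The measure was Dixon's ratio, the gap of the outermost value over the range, with a nominal rate of 5% for normal values. The groups of values share the same 13 arrays and are not independent, so 11.3% beside 5% is no comparison with chance. Kidney 1 was low for Sftpc (82.5) and Sftpb (94.3), and in mean log2 level for the lists of mesothelium (8.11), neutrophils and mast cells (6.79), B cells (6.84), cartilage (5.95) and squamous epithelium (6.52). Heart 1 was low for Foxf1 (87.3), Wnt2 (49.2), Hox groups 1 to 5 (5.92) and growth regulators (10.5) and high for Myl2 (52246.8). These are the arrays with the lowest median signals. Other heart arrays stood apart for collagens (heart 3, low, 11.1), macrophages (heart 4, high, 9.21) and liver genes (heart 4, low, 6.25), and kidney 2 was high for Scgb1a1 (52.1).

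Of the lung arrays, lung 3 was low for Scgb1a1 (26608.1) and high for Ppara (63.1) and cartilage genes (6.96), and lung 5 was high for Tbx4 (6768.2) and squamous epithelium (9.92) and low for airway secretory genes (10.28). Lung 1 was low for Hoxa9 (6.7) and lung 2 for Myl2 (34.7). None of these values closed the gap between lung and the other organs for a gene described as higher or lower than in both. Whether tissue taken with the lung lay behind the values of lung 3 and lung 5 was not tested.

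The difference of lung from the mean of the other organs was larger at 1 week than at 4 weeks for Agt (5.07), Trim67 (3.88), Slc17a2 (3.65), Ces1d (3.59), Slc4a1 (3.27), Serpina1f (3.01), Tnnc2 (3.00) and Opcml (2.86), and smaller for Cyp2b10 (-4.02), Hspa1b (-3.90), Hdc (-3.72), Serpina3n (-3.64), Bpifa1 (-3.59), Hspa1a (-3.55), Tnni1 (-3.55) and Chil3 (-3.41), each tested as a difference between ages in limma. When single arrays were left out, only Tnnc2 among these 16 lost its call (highest adjusted p = 0.13, change between 1.99 and 3.91). On the 2 arrays left out, Sftpc read 27186.8 on the one titled heart 5 and Myh6 read 36022.4 on the one titled lung 4.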

How the results depend on the processing

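With heart 5 and lung 4 put back under their titles, 4098 genes were called against kidney and 0 against heart, so that the counts of genes higher, lower, at least 4-fold higher, at least 4-fold lower and carried to 4 weeks were all 0. At an unadjusted p under 0.05, 5532 genes differed from kidney and 4164 from heart. In the same setting the difference from kidney was -0.44 for Abca3 and -0.33 for Scnn1g, opposite to the values reported. An offset of 64 in place of 16 left 169 genes at least 4-fold higher and 30 lower, with 158 carried to 4 weeks, as its construction shrinks the differences of dim genes. Requiring more than 1.5-fold in the test gave 2554 calls against kidney, 2781 against heart, 658 higher and 366 lower than in both. With the mean over all probe sets of a gene, Napsa and Pdgfra turned to 0.09 and 0.16 against kidney; neither was called in both. The other alternatives left these counts within 1.5 times of those reported.

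Leaving out heart 1 with kidney 1, lung 3 with lung 5, and single arrays for the results that use 4 weeks, was chosen after seeing the data. Leaving out single arrays gave 5684 to 6856 calls against kidney, 6230 to 7330 against heart, 1687 to 1972 genes higher and 1133 to 1363 lower, 248 to 263 at least 4-fold higher, 55 to 64 at least 4-fold lower, 228 to 243 carried to 4 weeks and 2482 to 3336 with an age change. By the replicate number of the titles, residuals of same-numbered arrays correlated at -0.12 to 0.44 (median 0.06, 11 pairs). Those of different-numbered arrays correlated at -0.3 to 0.27 (median -0.01, 45 pairs). The highest value, 0.44, was between heart 1 and kidney 1, and whether same-numbered arrays shared handling was not tested. With the replicate number of the titles as a block, 1975 genes were higher and 1209 lower. At least 4-fold were 251 and 55, of which 244 and 53 were among those reported. With the number of the descriptions as a random block the strong counts stayed at 255 and 56 (consensus correlation -0.001). Dim signals in kidney and heart limit the folds of lung genes, which depend on the offset.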
